A study of Mus musculus with 24 samples.

Results

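The genes described here are 59 genes of the cell cycle and DNA replication in mouse macrophages. They were chosen from a list of names and fall into 10 G1 genes, 20 S-phase genes and 29 mitotic genes. Each gene is represented by a probe set, a group of array probes for one transcript, that the platform annotation gives to that gene alone. Where a gene has several, the probe set with the highest mean over all 24 arrays stands for it. In all 58 genes had such a probe set, and Ccnb1, a mitotic cyclin gene, was not analysed here. Mybl2, a transcription factor gene of the late cell cycle, stayed below the filter on low values and was not tested. Its log2 level lay between 2.96 and 5.16, and 1 of 24 arrays lay above the filter value of 5.08. The remaining 57 genes, 10 of G1, 20 of S phase and 27 mitotic, are part of 11779 genes tested, out of 18194 genes with a probe set.

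The cells were macrophages grown from the bone marrow of C57Bl/6 mice, a single inbred strain whose age and sex the labels do not give. After a night in culture medium and washing, they received medium that held no serum or 1 of 3 sera at 5%, from fetal calves, mice or humans. Each serum came from 1 supplier and had been heated at 56 °C for 30 min, which inactivates complement. In each medium the cells were left without stimulus or given 25 ng/ml lipopolysaccharide (LPS), the outer membrane component of Gram-negative bacteria that Tlr4 recognises. All cells were harvested 4 h later and their RNA was hybridised to Affymetrix whole-genome mouse arrays. The 8 groups of medium and LPS held 3 arrays each, 1 from each of the replicate experiments G, H and I. The labels do not say that the experiments used separate animals, so the p-values measure the spread between experiments.

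The cell cycle is driven by cyclin-dependent kinases. D-type cyclins bind Cdk4 and Cdk6 in G1 and answer to growth factors, and their kinases release E2F transcription factors from the retinoblastoma protein. E2F factors, with cyclin E and Cdk2, then turn on the genes that license and copy DNA in S phase. Genes of mitosis peak later, under the factors B-Myb and FoxM1. Bone marrow-derived macrophages are one of the few macrophage cultures that divide, in response to the growth factor Csf1, and LPS is known to stop their proliferation.

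Values are log2 levels as the authors deposited them, and a difference of 1 is a doubling. Array medians lay between 5.04 and 5.13, and arrays of a group correlated at 0.988 to 0.993 (Pearson's r across all probe sets, which are not independent replicates). Differences are given as LPS minus none or serum minus no serum, ± the standard error (SE) of the linear model in limma, with n = 3 arrays per group. A gene was called higher or lower where its p, adjusted over all 11779 genes within a comparison, was under 0.05. Further probe sets for 37 of the genes gave 240 results for LPS, of which 146 had the call of the chosen probe set and 34 had none by either. In 42 the call was made by the chosen one alone, in 15 by the other alone, and in 3, all for E2f1, the calls were opposite. All 10 macrophage markers, among them Adgre1, Csf1r and Cd68, lay above the filter in all 8 groups. The 5 genes taken as a check of the LPS stimulus (Tnf, Il6, Il1b, Nos2 and Cxcl10) were called higher with LPS in each medium. No marker of T and NK cells, such as Cd3e (2.21 to 3.05 over the arrays), or of fibroblasts passed the filter. Of 6 neutrophil markers with a probe set 4 passed it, and the mean level of the 6 ran from 5.43 to 6.24 in arrays without LPS and from 5.59 to 6.39 with it. Of these 4, 1 was called higher with LPS in no serum (0.83), 1 in calf serum, 1 in human serum (0.87) and 0 in mouse serum. For the marrow progenitor markers, of which 3 of 4 passed, the mean level ran from 5.19 to 5.73 without and from 5.06 to 5.59 with LPS. Of these Cd34 was lower with LPS in calf serum (-1.48) and had no call in the other media. Of 4 B cell markers 2 passed, with Cd79b lower in no serum (-1.40), calf serum (-2.03) and mouse serum (-0.68) and Pax5 higher in calf and human serum (0.49 in both). The dendritic cell marker Ccr9 was higher in no serum (1.09) and calf serum (0.99). The mean level of the B cell list ran from 4.11 to 4.76 without and from 4.21 to 4.60 with LPS, and that of the dendritic list from 4.26 to 4.80 and from 4.36 to 4.90. Pf4, listed as a megakaryocyte marker, was lower in each medium, by -0.21, -0.22, -0.28 and -0.23. Its level was 12.11 to 12.77 over the arrays, whereas Klf1 (3.36 to 4.39) and Itga2b (5.03 to 6.20) of the same list were far lower. The part of such cells in the results below was not tested. In RNA from whole cultures, fewer dividing cells and less RNA per cell cannot be told apart.

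With LPS most of the cell cycle genes fell in every medium. In no serum 37 of the 57 genes were lower and 5 higher, where 39.1% of all genes tested were called lower and 19.8% higher. Calf serum gave 42 lower and 5 higher, against 37.8% and 20.7% of all genes. In mouse serum 34 were lower and 6 higher, against 33.8% and 17.8%, and in human serum 32 were lower and 6 higher, against 35.5% and 18.4%. The median difference of the 57 genes was -0.71 without serum, -0.87 with calf, -0.65 with mouse and -0.54 with human serum. Over all genes tested the median was -0.19, -0.17, -0.15 and -0.16. Because that median lay below 0, each array was also centred on the median of the genes tested, which moved the median of all genes to between 0.03 and 0.07. The split of the cell cycle genes was then 24 lower and 8 higher without serum, 34 and 6 with calf, 28 and 7 with mouse and 21 and 10 with human serum. All genes then counted 2928 lower and 3738 higher without serum, 2747 and 3911 with calf, 2605 and 3080 with mouse and 2716 and 3227 with human serum.

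Across the 4 media 28 of the 57 genes (49.1%) were lower with LPS in every one, against 23.8% of all genes tested. The 3 genes Ccnd2, Cenpe and Tpx2 (5.3%) were higher in every medium, against 12.9% of all genes. By class, 16 of 27 mitotic genes, 8 of 20 S-phase genes and 4 of 10 G1 genes were lower in all 4 media. Foxm1, Prim1, Tyms and Cdc45 had no call in any of them. Mki67 alone among the members was called in opposite directions in different media.

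**Figure D1:**
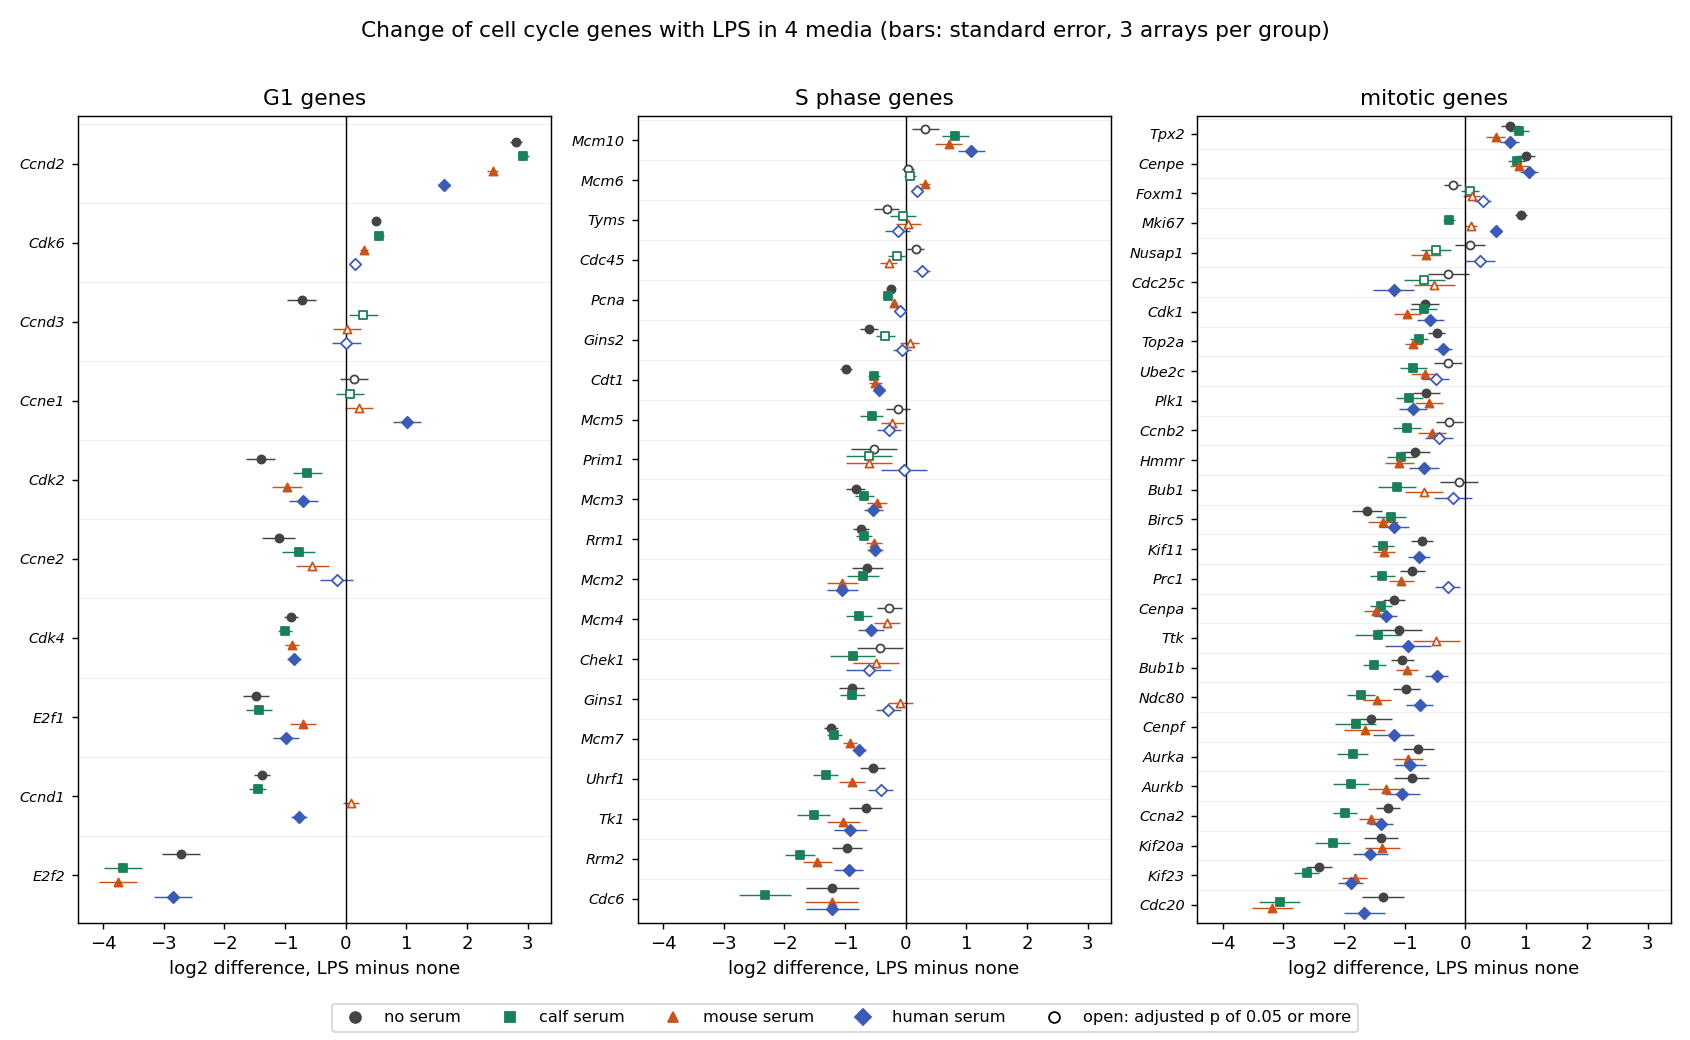
Log2 difference between arrays with and without LPS (horizontal axis) for the 57 tested genes, by class. Within a class the genes are ordered by their difference in calf serum. Each medium has 1 marker, with bars for the standard error and open markers for an adjusted p of 0.05 or more. Most markers lie left of 0, Ccnd2 lies to the right in all 4 media, and Mki67 lies on both sides.

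The class means show the same classes array by array. The mean level of the 10 G1 genes without LPS was 8.35 ± 0.02 (SD, n = 3) without serum, 8.51 ± 0.08 with calf, 8.30 ± 0.03 with mouse and 8.31 ± 0.14 with human serum. With LPS it was 7.72 ± 0.06, 8.0 ± 0.05, 7.92 ± 0.11 and 7.96 ± 0.03. The mean of the 20 S-phase genes went from 8.91 ± 0.09, 9.004 ± 0.09, 8.70 ± 0.14 and 8.66 ± 0.10 to 8.38 ± 0.15, 8.29 ± 0.22, 8.24 ± 0.12 and 8.29 ± 0.13 in the same order of media. That of the 27 mitotic genes went from 7.79 ± 0.12, 8.04 ± 0.08, 7.80 ± 0.02 and 7.54 ± 0.08 to 7.11 ± 0.10, 6.88 ± 0.03, 6.87 ± 0.08 and 6.89 ± 0.13. In every class and medium the 3 arrays with LPS lay below the 3 without. Without LPS the mitotic mean was highest in calf serum and lowest in human serum, with no overlap of their arrays with the other media. With LPS the calf, mouse and human serum arrays of the mitotic mean overlapped, and those of no serum, at 7.03 to 7.23, lay above them. These means are descriptions with no test.

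**Figure D2:**
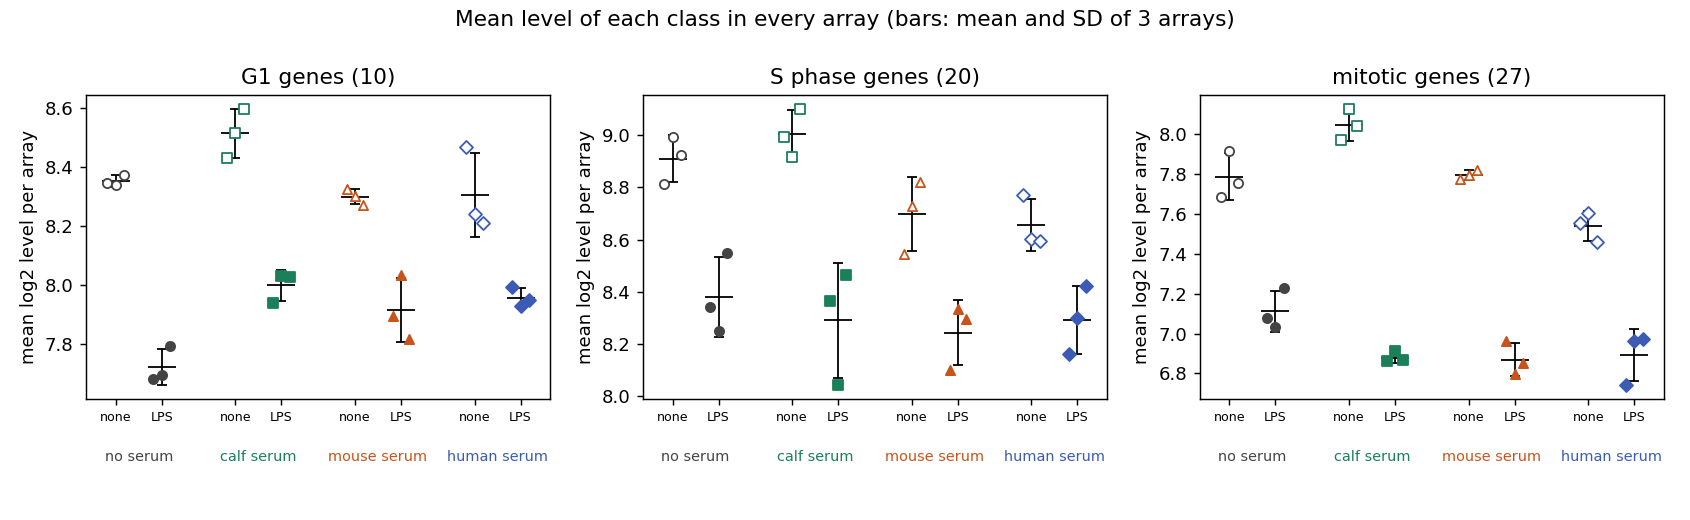
Mean log2 level of the G1, S-phase and mitotic genes in each array (vertical axis) by medium and LPS, with the mean and SD of 3 arrays as bars. Within each medium the arrays with LPS lie below those without in all 3 panels, and the mitotic means with LPS lie between 6.74 and 7.23.

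The median LPS difference of the G1 genes was -1.01 without serum, -0.70 with calf, -0.26 with mouse and -0.42 with human serum. For the S-phase genes it was -0.57, -0.68, -0.48 and -0.42, and for the mitotic genes -0.78, -1.23, -0.96 and -0.75. These medians were below 0 as deposited, with quantile normalization and with centred arrays. In the mitotic class 18 genes were lower and 3 higher without serum, 22 and 2 with calf, 20 and 2 with mouse and 18 and 3 with human serum. In the S-phase class the counts were 12 lower and 0 higher (also 0 higher at an unadjusted p under 0.05 in limma), 14 and 1, 10 and 2, and 9 and 1. The G1 class, of 10 genes tested, had 7 lower and 2 higher, 6 and 2, 4 and 2, and 5 and 2. The shares of all genes were 39.1% lower and 19.8% higher, 37.8% and 20.7%, 33.8% and 17.8%, and 35.5% and 18.4%, and the G1 counts in mouse serum are near them.

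The promoters of some of these genes are shown because the classes are known by motifs in them. Mitotic promoters are known for the cell cycle homology region (CHR), read by the DREAM and MuvB complexes, and for CCAAT boxes, bound by NF-Y, and genes of G1 and S phase for E2F sites. Windows from 250 bases before to 50 bases after the start came from RefSeq (GRCm38.p6), which gave 52 windows for 47 of the 59 genes. Both strands were searched. The letters of the CHR were TTTGAA or TTCGAA. Those of the CCAAT box are its name, and those of E2F were TTTCGCGC, TTTGGCGC, TTTCCCGC or TTTGCCGC. CHR was found in 19 of 24 mitotic windows (79.2%), 3 of 19 S-phase windows (15.8%) and 1 of 9 G1 windows (11.1%), against 19.2% of all promoters in the table. CCAAT was found in 83.3%, 73.7% and 44.4% of these classes, against 37.4% of all. E2F was found in 7 of 19 S-phase windows (36.8%), 2 of 9 G1 windows (22.2%) and 1 of 24 mitotic windows (4.2%), against 2.3% of all. CHR together with CCAAT was found in 18 of 24 mitotic windows (75.0%) and in 7.5% of all. The matches describe the letters only, and the windows hold no measurement of binding.

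The windows below are those of Cdc20 (chr4:118437294-118437593, minus strand) and Kif23 (chr9:61946750-61947049, minus strand), mitotic genes that fell in all 4 media, and of Mki67 (chr7:135716330-135716629, minus strand), a mitotic gene that did not. Mcm7 (chr5:138171834-138172133, minus strand) and Cdc6 (chr11:98907901-98908200, plus strand) are S-phase genes that fell in all 4 media. They were picked after the values and the matches had been seen. Each runs 5′ to 3′ on the gene's strand, with the matches on either strand in capitals, and in Mcm7 the last E2F and CCAAT matches share a base.
Cdc20: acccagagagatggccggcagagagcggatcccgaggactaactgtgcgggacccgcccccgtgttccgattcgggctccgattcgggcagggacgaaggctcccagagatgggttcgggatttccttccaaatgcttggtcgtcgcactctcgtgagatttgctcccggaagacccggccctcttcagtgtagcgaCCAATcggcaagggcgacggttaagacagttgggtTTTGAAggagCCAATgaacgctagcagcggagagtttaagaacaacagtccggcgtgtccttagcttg
Kif23: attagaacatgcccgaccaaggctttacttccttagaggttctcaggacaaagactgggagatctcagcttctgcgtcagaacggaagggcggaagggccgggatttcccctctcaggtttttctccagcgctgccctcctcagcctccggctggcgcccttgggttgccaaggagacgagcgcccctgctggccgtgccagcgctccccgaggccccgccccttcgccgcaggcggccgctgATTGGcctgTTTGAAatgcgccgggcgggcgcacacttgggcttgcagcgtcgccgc
Mki67: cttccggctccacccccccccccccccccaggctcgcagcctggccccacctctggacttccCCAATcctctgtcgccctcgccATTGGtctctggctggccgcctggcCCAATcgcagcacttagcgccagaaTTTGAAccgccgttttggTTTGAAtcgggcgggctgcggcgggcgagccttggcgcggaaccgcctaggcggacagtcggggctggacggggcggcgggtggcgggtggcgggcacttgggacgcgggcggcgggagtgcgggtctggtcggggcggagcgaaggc
Mcm7: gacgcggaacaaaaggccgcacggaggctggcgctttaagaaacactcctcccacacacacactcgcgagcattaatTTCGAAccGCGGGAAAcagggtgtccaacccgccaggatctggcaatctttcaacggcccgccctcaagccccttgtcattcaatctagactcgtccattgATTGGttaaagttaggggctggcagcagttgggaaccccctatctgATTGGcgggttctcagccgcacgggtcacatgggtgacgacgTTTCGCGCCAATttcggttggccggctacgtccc
Cdc6: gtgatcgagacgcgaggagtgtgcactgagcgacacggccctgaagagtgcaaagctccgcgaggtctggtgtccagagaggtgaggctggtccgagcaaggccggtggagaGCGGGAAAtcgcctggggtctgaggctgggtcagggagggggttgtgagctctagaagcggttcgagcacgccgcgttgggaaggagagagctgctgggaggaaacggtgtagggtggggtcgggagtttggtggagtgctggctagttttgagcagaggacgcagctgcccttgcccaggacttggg
Cdc20 carries CHR at position -18 from the start between CCAAT matches at -53 and -8. Kif23 has CHR at position 2 and CCAAT at -7. Mki67 has CHR at -116 and -98 and CCAAT at -188, -166 and -141, so these letters are present in a gene that rose in no serum as well as in genes that fell. Mcm7 has E2F at -165 and 16, CHR at -173 and CCAAT at -72, -26 and 23. Another Mcm7 window (chr5:138171217-138171516) has 1 CCAAT match and neither CHR nor E2F, and the window with more matches was printed. Cdc6 has E2F at -138 and neither of the other motifs.

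Among the G1 genes the D-type cyclins, which bind Cdk4 and Cdk6 and are the growth-factor sensors of the cycle, each behaved differently. Ccnd2 rose in all media. Its log2 level in experiments G, H and I was 9.10, 9.21 and 8.95 in no serum and 11.95, 11.86 and 11.88 with LPS. In calf serum it was 8.74, 9.02 and 8.99, and 11.89, 11.72 and 11.92 with LPS. The levels without and with LPS lay far apart in both media, with no overlap. In mouse serum the arrays read 9.42, 9.57 and 9.17 without LPS, and 11.71, 11.87 and 11.84 with it. In human serum Ccnd2 was already at 10.20, 10.27 and 10.18 without LPS, and it reached 11.89, 11.79 and 11.83 with it. The level with LPS thus spanned 11.71 to 11.95 over all media, whereas the level without it was highest in human serum. The difference with LPS was 2.81 ± 0.10 without serum (7.02-fold, adjusted p 8.1e-17), 2.93 with calf (adjusted p 3.7e-17), 2.42 with mouse (adjusted p 1.4e-15) and 1.62 with human serum (adjusted p 1.5e-12). The rise was smaller in human serum than in no serum by 1.19 ± 0.14 (adjusted p 5.4e-06), which is a test of the difference itself.

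Ccnd1 fell with LPS except in mouse serum. In no serum its level was 9.58, 9.78 and 9.93, and 8.12, 8.54 and 8.48 with LPS. In calf serum it was 10.75, 10.92 and 11.0004, and 9.12, 9.71 and 9.48 with LPS. Both media show all LPS arrays more than a unit below their controls. In mouse serum the level was 10.18, 10.41 and 10.44 without LPS and 10.40, 10.54 and 10.34 with it, and these groups overlapped. In human serum it was 10.58, 10.52 and 10.51, and 9.91, 9.72 and 9.67 with LPS, without overlap. The difference was -1.38 ± 0.13 in no serum (adjusted p 6.8e-09), -1.45 in calf (adjusted p 2.9e-09) and -0.77 in human serum (adjusted p 4.1e-05), and in mouse serum it was 0.08 (adjusted p 0.62). The response in mouse serum differed from that in no serum by 1.46 ± 0.19 (adjusted p 2.1e-05) and from that in calf serum by 1.54 (adjusted p 1.8e-05).

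Ccnd3 fell in no serum only among the 4 media, by the test in each, with -0.73 ± 0.24 (adjusted p 0.011). Its arrays there, at 6.90, 6.74 and 6.16 without LPS and 5.44, 6.20 and 5.97 with it, overlapped. The call was lost without the experiment G arrays of no serum, alone (-0.58 without the control, -0.51 without the LPS array) or together (-0.37), with centred arrays and with quantile normalization. Its values in calf, mouse and human serum were 0.29, 0.02 and 0.01, and no difference between media in this response passed the test.

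The kinase partners of the D cyclins moved in opposite directions. Cdk4 fell in every medium, by -0.91 ± 0.11 without serum, -1.01 with calf, -0.89 with mouse and -0.85 with human serum, with adjusted p from 9.5e-08 to 1.4e-06. In no serum its arrays went from 9.43, 9.65 and 9.65 to 8.67, 8.65 and 8.69. Cdk6 rose by 0.50 ± 0.07 in no serum, 0.55 in calf and 0.30 in mouse serum, and its difference in human serum was 0.16 (adjusted p 0.062). Its no serum arrays went from 11.26, 11.24 and 11.23 to 11.88, 11.61 and 11.73. Another probe set for Cdk6 had no call in mouse serum (0.26), and a further one was higher in human serum (0.22). Cdk2, the partner of cyclins E and A, fell in all media, by -1.40 ± 0.24, -0.63, -0.97 and -0.70 in the order no serum, calf, mouse and human. Its calls in calf and human serum were lost in 9 and 6 of 17 alternatives, where the difference ran from -0.79 to -0.39 in calf and from -0.79 to -0.51 in human serum.

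E2f2, one of the activator E2F factors, had the largest fall of any member in each medium. In no serum its level went from 7.72, 8.04 and 8.25 to 5.39, 5.42 and 5.05, and in calf serum from 7.84, 8.59 and 8.73 to 4.18, 5.18 and 4.79. In mouse serum it went from 8.52, 8.82 and 8.84 to 4.94, 5.31 and 4.66, and in human serum from 8.26, 7.05 and 7.05 to 4.86, 4.13 and 4.83. No groups overlapped, and the mean with LPS lay below the filter in calf, mouse and human serum, so the folds there depend on background. The difference was -2.72 ± 0.31 without serum (adjusted p 9.2e-08), -3.67 with calf (12.7-fold), -3.75 with mouse (13.5-fold) and -2.85 with human serum (adjusted p 5.2e-08). E2f1, the other activator E2F in the list, was lower in all media, by -1.48 ± 0.21, -1.43, -0.71 and -0.98. Its 3 probe sets disagreed. One whose name ending marks possible cross-hybridisation rose by 0.59 in no serum, 0.71 in calf and 0.74 in human serum, and the call was lost with the second probe set in calf, mouse and human serum and without experiment G in mouse serum (-0.50). E2f1 is therefore uncertain. The chosen probe sets of 9 tested members have the same name ending, those of Cdk4, Ccne1, Mcm4, Mcm5, Mcm6, Rrm2, Cdc20, Cdc25c and Foxm1.

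The cyclin E genes, which bring Cdk2 into action at the entry to S phase, were mixed. Ccne1 rose in human serum by 1.01 ± 0.23 (adjusted p 0.00076), from 7.23, 7.29 and 7.46 to 8.16, 7.98 and 8.88. Its values in no serum, calf and mouse serum were 0.14, 0.06 and 0.22, although another probe set for it was called higher in no serum (0.93), calf serum (0.69) and mouse serum (0.58). Ccne2 fell in no serum, by -1.11 ± 0.28, and in calf serum, by -0.78, and the latter call was lost in 5 of 17 alternatives (-1.05 to -0.38), among them without the calf serum LPS array of experiment H or the control array of experiment I. Only 3 of its 8 group means lay above the filter.

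**Figure D3:**
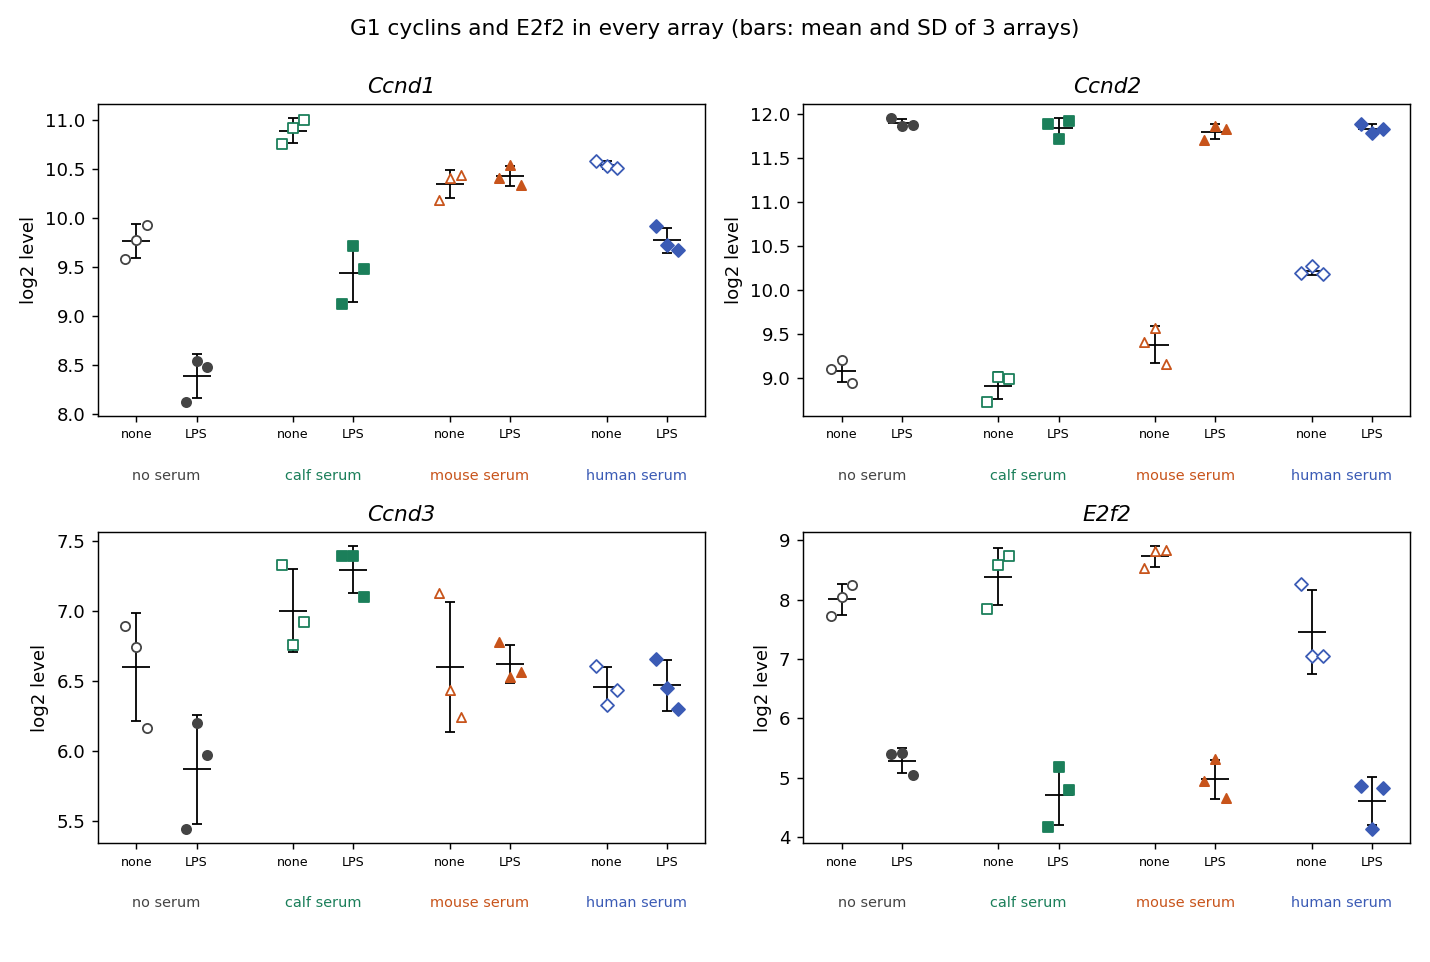
Log2 level (vertical axis) of the D-type cyclin genes and of E2f2 in each of the 24 arrays, by medium and LPS, with the mean and SD of 3 arrays as bars. Ccnd2 with LPS lies between 11.71 and 11.95 in all media, Ccnd1 with LPS lies near its control in mouse serum only, and E2f2 with LPS lies between 4.13 and 5.42.

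Of the S-phase genes that fell in all 4 media, the helicase subunit gene Mcm7 and the ribonucleotide reductase subunit gene Rrm2 kept their calls in every alternative run. The Mcm2 to Mcm7 proteins form the ring that unwinds DNA, and ribonucleotide reductase makes the deoxynucleotides for copying it. Mcm7 went from 10.79, 11.12 and 10.96 to 9.68, 9.77 and 9.74 in no serum and from 11.10, 11.09 and 10.82 to 9.96, 9.75 and 9.77 in calf serum. In mouse serum it went from 10.59, 10.37 and 10.71 to 9.53, 9.68 and 9.70, and in human serum from 10.56, 10.08 and 10.43 to 9.53, 9.52 and 9.70. No LPS array reached its controls in any medium. The differences were -1.23 ± 0.12 (adjusted p 6.3e-09), -1.17, -0.92 and -0.77 (adjusted p 8.7e-06). Rrm2 fell by -0.97 ± 0.24 without serum, -1.74 with calf, -1.46 with mouse and -0.94 with human serum. Its calf serum arrays went from 11.01, 10.78 and 11.004 to 9.22, 8.79 and 9.56. A further probe set for Mcm7 gave no call in mouse (-0.23) and human serum (-0.49), and a further one for Rrm2 none in human serum (-0.41). Rrm1, the other subunit, fell by -0.73 ± 0.13, -0.69, -0.53 and -0.51, and the mouse and human serum calls were lost with its second probe set (-0.26 and -0.16) and without experiment I in mouse (-0.45) or experiment G in human serum (-0.32).

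The other members of the Mcm ring did not move as one. Mcm3 fell in all media, by -0.82 ± 0.16 without serum, -0.68 with calf, -0.47 with mouse and -0.54 with human serum, and Mcm2 by -0.63 ± 0.26, -0.70, -1.04 and -1.04. The Mcm2 difference in no serum had one sign in 2 of 3 experiments only and lost its call in 8 of 19 alternatives (-1.18 to -0.37), among them without experiment G or H. The Mcm2 call was also lost without experiment G or H in calf serum, without H in mouse serum and without G in human serum, and that of Mcm3 without experiment G or I in mouse serum and without G in human serum. Mcm4 was lower in calf serum (-0.77 ± 0.21) and human serum (-0.57), the latter call lost without experiment G (-0.41), and Mcm5 in calf serum alone by the test in each medium (-0.56 ± 0.19, lost in 7 of 19 alternatives, experiment G left out among them). Mcm6 rose in mouse serum (0.31 ± 0.10), a call lost without the LPS array of experiment H (0.25) and without experiment I (0.27), and was at 0.04, 0.08 and 0.19 elsewhere. Which media had a call depended on the probe set. For Mcm3 another had no call in calf (-0.35), mouse (-0.47) and human serum (-0.34). A further Mcm3 probe set had none in mouse (-0.32) and human serum (-0.19). Another one for Mcm4 was lower in no serum (-0.74) and mouse serum (-0.46). For Mcm5 another was lower in no serum (-0.50) and had no call in calf serum (-0.47), and for Mcm6 another was higher in human serum (0.58). Mcm10, which helps to switch the helicase on, rose in calf serum (0.82 ± 0.22), mouse serum (0.71) and human serum (1.09, adjusted p 0.00028) and was at 0.33 in no serum. Its human serum arrays went from 6.51, 6.89 and 6.05 to 7.31, 7.49 and 7.90. Without experiment H the calf call was lost (0.42), and without experiment I that in mouse serum (0.63). Another Mcm10 probe set had no call in human serum (0.60).

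The loaders of the helicase, Cdc6 and Cdt1, were lower in all 4 media. Cdt1 went from 11.61, 11.63 and 11.88 to 10.53, 10.96 and 10.68 in no serum, a difference of -0.98 ± 0.10 (adjusted p 2e-08). In calf, mouse and human serum the difference was -0.52, -0.50 and -0.43. Cdc6 fell by -2.32 ± 0.43 in calf serum (adjusted p 8.5e-05), from 5.88, 6.45 and 6.48 to 3.99, 3.68 and 4.18, without overlap. In no serum, mouse and human serum it was called at -1.21, -1.22 and -1.21, and these calls were lost in 6, 4 and 7 of 18 alternatives, with values from -1.79 to -0.71. Its mean lay below the filter in all groups with LPS. Pcna, the sliding clamp of DNA polymerase, changed little, by -0.23 ± 0.04, -0.29, -0.19 and -0.09 (adjusted p 0.077 in human serum). With centred arrays its difference in no serum was 0.01, of opposite sign, and that in calf and mouse serum lost its call. The thymidine kinase gene Tk1 fell by -1.51 ± 0.27 in calf, -1.02 with mouse and -0.91 with human serum, and by -0.66 in no serum, where the call was lost in 12 of 18 alternatives, the experiment block (adjusted p 0.051) among them. Its calls in mouse and human serum were lost without experiment I (-0.70) and without experiment G (-0.39).

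The remaining S-phase genes were called in some media or none. Gins1 and Gins2 encode subunits of the GINS complex, a partner of the Mcm ring. Gins1 fell by -0.89 ± 0.21 in no serum and -0.88 in calf serum, with -0.09 in mouse and -0.28 in human serum, and Gins2 by -0.60 ± 0.15 in no serum, with -0.34, 0.06 and -0.06 in the sera. The no serum calls were lost without experiment H for Gins1 (-0.59) and without experiment I for Gins2 (-0.41), and both Gins1 calls were lost with its second probe set. Uhrf1, which keeps DNA methylation through replication, fell by -0.54 ± 0.21 in no serum, -1.32 in calf and -0.89 in mouse serum, with -0.41 in human serum. The no serum call was lost in 10 of 19 alternatives (-0.67 to -0.28). Another probe set for Uhrf1 had no call in no serum (-0.28) or calf serum (-0.66). Chek1, the kinase gene of the replication checkpoint, was called in calf serum alone (-0.87 ± 0.37, adjusted p 0.049), and its second probe set gave 0.28. The other values of Chek1 were -0.42 in no serum, -0.49 in mouse and -0.61 in human serum.

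No call was made for Cdc45, Prim1 or Tyms through their chosen probe sets. Cdc45 encodes a partner of the Mcm ring, and its differences were 0.17 ± 0.14 without serum, -0.15 with calf, -0.28 with mouse and 0.26 with human serum. Prim1, the primase gene, gave -0.51 ± 0.38, -0.61, -0.61 and -0.03, although another probe set for it was lower in calf serum (-1.13, adjusted p 0.001). The values of Tyms, the thymidylate synthase gene, were -0.31 ± 0.21, -0.04, 0.04 and -0.13. All group means of Tyms lay below the filter, and its level ran from 4.42 to 5.34 over the arrays. At such levels the lack of a call for Tyms cannot show whether the gene changed with LPS.

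Among the mitotic genes Kif23 fell furthest in no serum and human serum, and Cdc20 in calf and mouse serum. Cdc20 activates the anaphase-promoting complex, which ends metaphase. Its level went from 7.59, 8.15 and 7.56 to 7.14, 6.12 and 5.97 in no serum and from 8.20, 8.24 and 8.30 to 5.74, 4.50 and 5.31 in calf serum. In mouse serum it went from 8.87, 7.82 and 9.45 to 5.62, 5.22 and 5.74, and in human serum from 7.66, 7.40 and 7.91 to 5.98, 5.94 and 6.07. The groups did not overlap in any medium. The difference was -1.36 ± 0.34 without serum (adjusted p 0.0016), -3.06 with calf (adjusted p 6.5e-08), -3.18 with mouse (adjusted p 4.2e-08) and -1.66 with human serum (adjusted p 0.00026). Another Cdc20 probe set gave no call in human serum (-0.18). Kif23, a kinesin of the midzone that is needed for cytokinesis, went from 8.75, 9.004 and 8.55 to 5.81, 6.79 and 6.46 in no serum and from 8.93, 9.03 and 8.97 to 6.22, 6.17 and 6.69 in calf serum. In mouse serum it went from 8.41, 8.42 and 8.49 to 7.01, 6.41 and 6.41, and in human serum from 7.85, 7.80 and 7.78 to 5.74, 5.99 and 6.02. Its differences were -2.42 ± 0.21 (adjusted p 7.9e-10), -2.62, -1.83 and -1.89, with at least a unit between the groups of each medium.

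Calls in all 4 media were also made for the following mitotic genes. Ccna2, the cyclin of S phase and mitotic entry, fell by -1.27 ± 0.20 without serum, -1.99 with calf, -1.55 with mouse and -1.39 with human serum. Birc5, a subunit of the chromosomal passenger complex, fell by -1.63 ± 0.25, -1.23, -1.36 and -1.18, and Kif20a, a kinesin of cytokinesis, by -1.39 ± 0.29, -2.19, -1.37 and -1.57. Cenpa, the histone H3 variant of the centromere, fell by -1.18 ± 0.18, -1.39, -1.48 and -1.32. Another Cenpa probe set had no call in calf serum (-0.89), and a further one had none in human serum (-0.46). The Aurora kinase genes fell most in calf serum, with -1.86 ± 0.25 for Aurka and -1.89 ± 0.29 for Aurkb, against -0.78 and -0.88 in no serum, but no difference between these media passed the test. The mitotic kinase Cdk1 fell by -0.67 ± 0.22, -0.69, -0.96 and -0.58, and its calls outside mouse serum were lost in 5 to 8 of 18 alternatives. The checkpoint gene Bub1b fell by -1.04 ± 0.19, -1.50, -0.96 and -0.48, the last lost in 12 of 19 alternatives (-0.59 to -0.29).

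Several more mitotic genes were lower in all 4 media. Kif11, the kinesin that separates the spindle poles, fell by -0.71 ± 0.18 without serum, -1.35 with calf, -1.35 with mouse and -0.77 with human serum, and Ndc80, of the outer kinetochore, by -0.98 ± 0.23, -1.72, -1.46 and -0.75. Cenpf, a kinetochore-associated protein gene, fell by -1.55 ± 0.34, -1.81, -1.66 and -1.19, and Hmmr, whose product binds spindle microtubules, by -0.83 ± 0.24, -1.06, -1.09 and -0.69. Top2a, the topoisomerase that untangles chromosomes, fell by -0.47 ± 0.14, -0.77, -0.86 and -0.37, and the mitotic kinase gene Plk1 by -0.65 ± 0.22, -0.93, -0.60 and -0.86. Each of these had a medium in which the call depended on 1 alternative or more. Further probe sets for Hmmr had no call in no serum (-0.19 and -0.17), mouse serum (-0.23 and -0.19) and human serum (-0.13 and -0.42). Another probe set for Kif11 had none in no serum (-0.20) and human serum (-0.40). Without experiment H the no serum calls of Top2a, Hmmr, Aurka and Aurkb were lost, and without experiment G those of Plk1 and Aurka. In mouse serum the Plk1 call was lost without any 1 of the 3 experiments. In human serum leaving out experiment G ended the calls of Ndc80 and Aurka, and leaving out experiment I ended that of Cenpf.

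The other mitotic genes were called in 1 to 3 media. Prc1, a microtubule bundler of the midzone, fell by -0.88 ± 0.21 in no serum, -1.37 in calf and -1.06 in mouse serum, with -0.29 in human serum. Its calf serum arrays went from 7.67, 8.21 and 7.92 to 6.49, 6.49 and 6.69, and its human serum arrays, at 7.53, 7.67 and 7.37 without and 6.997, 7.28 and 7.41 with LPS, overlapped. Ttk, the Mps1 checkpoint kinase gene, fell by -1.10 ± 0.38 in no serum, -1.45 in calf and -0.95 in human serum, with -0.48 in mouse serum. Only 5 of its 8 group means lay above the filter, and those with LPS in no serum, calf serum (4.67) and human serum (4.51) did not. The Ttk folds there depend on background. In mouse serum its LPS arrays read 6.52, 4.70 and 4.11, and its difference was 0.64, -0.89 and -1.19 in experiments G, H and I. Ube2c, the ubiquitin-conjugating enzyme of the anaphase-promoting complex, fell by -0.86 ± 0.22 in calf and -0.67 in mouse serum, and Ccnb2, a mitotic cyclin gene, by -0.96 ± 0.23 and -0.55. Ube2c was at -0.29 in no serum and -0.49 in human serum, and Ccnb2 at -0.26 and -0.43. Bub1, a checkpoint kinase gene, was called in calf serum (-1.13 ± 0.32), Cdc25c, the phosphatase gene that activates Cdk1, in human serum (-1.18 ± 0.34), and Nusap1, a microtubule-binding protein gene, in mouse serum (-0.65 ± 0.24). Without experiment H the calls of Bub1 and Ube2c in calf serum, of Ccnb2 and Nusap1 in mouse serum, of Ttk in human serum and of Ttk and Prc1 in no serum were lost. Without experiment G those of Ube2c in mouse and Cdc25c in human serum were lost. Another probe set for Cdc25c had no call in human serum (-0.23).

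Against this direction, Cenpe and Tpx2 rose in all 4 media. Cenpe is the kinesin that carries chromosomes to the spindle equator. It went from 8.07, 8.48 and 8.04 to 8.88, 9.48 and 9.21 in no serum and from 8.39, 8.41 and 8.59 to 9.30, 9.49 and 9.13 in calf serum. In mouse serum it went from 8.28, 8.39 and 8.40 to 9.05, 9.38 and 9.29, and in human serum from 8.12, 8.14 and 7.93 to 9.25, 9.05 and 9.02. All 12 arrays with LPS lay above all 12 without. The differences were 0.99 ± 0.15 (adjusted p 4e-06), 0.84, 0.88 and 1.04, and the calf serum call was lost with the second probe set (0.40). Tpx2, which activates Aurora A on the spindle, was called at 0.74 ± 0.16, 0.88, 0.50 and 0.73, but with its second probe set the value was 0.29, 0.37, -0.27 and -0.42 with no call. The direction of Tpx2 is therefore not settled by these arrays. Foxm1 likewise had no call through its chosen probe set (-0.21, 0.07, 0.10 and 0.28), while another probe set was lower in all 4 media (-1.24, -1.22, -0.82 and -1.04, the mouse serum value with an adjusted p of 0.03) and a further one in no serum (-0.76) and calf serum (-0.53). The change of Foxm1 is uncertain for that reason.

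Mki67, the proliferation antigen Ki-67 that coats mitotic chromosomes, took a direction that depended on the medium. In no serum it went from 11.08, 11.17 and 11.28 to 12.01, 12.11 and 12.15, a rise of 0.92 ± 0.10 (adjusted p 3.9e-08) without overlap. In human serum it went from 10.92, 11.09 and 11.17 to 11.50, 11.47 and 11.75, a rise of 0.51 (adjusted p 0.00014) without overlap. In mouse serum it read 11.09, 11.26 and 11.42 without LPS and 11.19, 11.35 and 11.50 with it, a difference of 0.09 (adjusted p 0.46). In calf serum it went from 11.28, 11.52 and 11.44 to 11.07, 11.09 and 11.26, a fall of -0.27 (adjusted p 0.022). That fall lost its call without the LPS array of experiment G (-0.24) or H (-0.25), without the control array of H (-0.22) or I (-0.26), without experiment H (-0.19) and with centred arrays (-0.04). The response in calf serum differed from that in no serum by -1.19 ± 0.14 (adjusted p 1.7e-05), and that in mouse serum by -0.83 (adjusted p 0.00045).

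**Figure D4:**
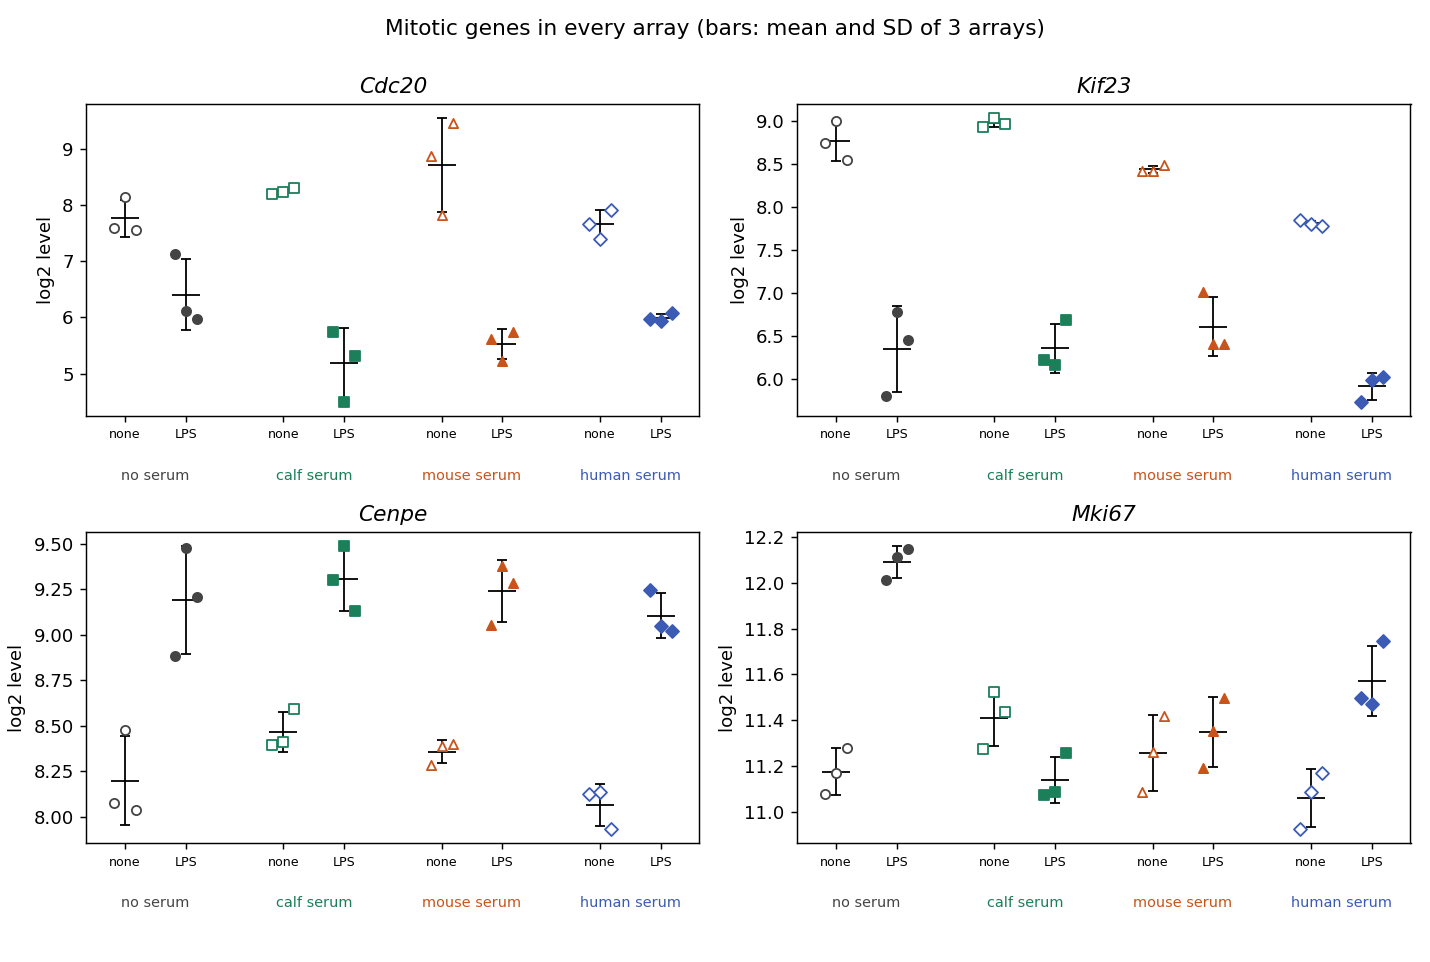
Log2 level (vertical axis) of Cdc20, Kif23, Cenpe and Mki67 in each of the 24 arrays, by medium and LPS, with the mean and SD of 3 arrays as bars. Cdc20 and Kif23 fall with LPS in all media, Cenpe rises in all, and Mki67 is highest with LPS in no serum, at 12.01 to 12.15.

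Other genes of the same pathways, from lists of names, were mostly lower with LPS in the mitotic and replication lists. Of 38 other mitotic genes 31 were lower and 4 higher without serum, 30 and 2 with calf, 32 and 1 with mouse and 27 and 1 with human serum. Kif2c, a microtubule-depolymerising kinesin, fell by -2.31 ± 0.48, -3.62, -2.62 and -2.10. Pttg1, the gene of securin, rose in all media, by 1.19 ± 0.07, 1.06, 1.33 and 1.47. Of 39 other replication genes 24 were lower and 3 higher without serum, 27 and 4 with calf, 23 and 5 with mouse and 24 and 3 with human serum. Of all genes 39.1% were lower and 19.8% higher without serum, 37.8% and 20.7% with calf, 33.8% and 17.8% with mouse and 35.5% and 18.4% with human serum. Gmnn, whose product geminin holds Cdt1 back, fell by -2.57 ± 0.14, -3.00, -2.16 and -2.36, whereas Timeless, of the replication fork protection complex, rose by 1.73 ± 0.14, 1.64, 2.17 and 2.30. The medians, -0.79 and -0.77 without serum and -1.26 and -0.73 with calf serum, were below 0 in every medium as deposited, with quantile normalization and with centred arrays.

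The list of brakes on the cycle held genes that rose and genes that fell. Of its 30 genes 12 were higher and 10 lower without serum, 11 and 12 with calf, 10 and 11 with mouse and 11 and 11 with human serum, against 19.8% and 39.1%, 20.7% and 37.8%, 17.8% and 33.8%, and 18.4% and 35.5% of all genes. With centred arrays the counts were 15 and 9, 11 and 11, 12 and 8, and 13 and 8, and the sign of its median depended on the scaling in calf and mouse serum. Gadd45b, a stress-induced inhibitor of growth, rose by 3.85 ± 0.19, 3.46, 3.17 and 3.87. Ccng2, an unconventional cyclin linked to cell cycle arrest, rose by 2.46 ± 0.12, 2.05, 2.37 and 2.65, and Rbl1, the gene of the retinoblastoma relative p107, by 2.00 ± 0.16, 2.32, 2.33 and 2.76. E2f7, a repressor E2F that is itself an E2F target, fell by -2.32 ± 0.32, -3.31, -2.54 and -2.13. Its mean with LPS in calf serum was 2.64, below the filter, so the fold there depends on background. Of 16 growth signal genes 8 were lower and 5 higher in no serum and calf serum, and 8 and 4 in mouse and human serum, against the shares of all genes given above. With centred arrays 6 were lower and 6 higher without serum, 5 and 6 with calf, 6 and 6 with mouse and 6 and 4 with human serum. Csf1, the macrophage growth factor, rose by 2.85 ± 0.14, 3.51, 3.58 and 2.61, and Mxd1, an antagonist of Myc, by 2.74 ± 0.18, 3.10, 4.20 and 4.22. Of the same family of Myc antagonists, Mxd4 fell by -3.41 ± 0.20, -3.54, -1.63 and -1.84, and Mxi1 by -1.31 ± 0.14, -1.17, -1.31 and -1.49. The immediate early gene Fos fell by -2.99 ± 0.16, -2.29, -1.78 and -2.84.

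Without LPS the sera changed few of these genes. The 3 sera were each set against the same no serum arrays, so their values stand side by side and are not independent. In calf serum 1 of 57 genes was higher and 1 lower, where 0.696% and 2.27% of all genes were called. Mouse serum had 1 higher and 4 lower, against 4.47% and 5.35%. Human serum had 3 higher and 5 lower, against 4.73% and 5.69%. With the experiment as a block 2 genes were higher in calf serum and 2 in mouse serum. None of the 27 mitotic genes was called in calf or mouse serum (5 higher and 0 lower in calf, and 3 higher and 1 lower in mouse serum, at an unadjusted p under 0.05 in limma). No S-phase gene was called in calf serum (1 higher and 0 lower at an unadjusted p under 0.05 in limma).

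The gene the sera shared was Ccnd1, which was higher by 1.13 ± 0.13 in calf (adjusted p 8.3e-06), 0.58 in mouse (adjusted p 0.0048) and 0.78 in human serum (adjusted p 0.00034). Its no serum arrays, at 9.58 to 9.93, lay below all arrays with serum. The mouse serum call was lost without experiment H (0.56) or I (0.61). Ccnd2 was higher in human serum by 1.13 ± 0.10 (adjusted p 2.8e-08). Cdk6 was lower in calf serum by -0.30 ± 0.07 (adjusted p 0.013) and higher in human serum by 0.26 (adjusted p 0.018), calls lost in 6 and 8 of 19 alternatives.

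The genes lower in mouse or human serum without LPS lost their calls when 1 experiment was left out. In human serum Kif23 was lower by -0.96 ± 0.21 (adjusted p 0.0033), Bub1b by -0.69 (adjusted p 0.018), Foxm1 by -0.56 (adjusted p 0.012), Mcm7 by -0.60 (adjusted p 0.0014) and Pcna by -0.14 (adjusted p 0.036). The Kif23 arrays were 7.85, 7.80 and 7.78 in human serum against 8.75, 9.004 and 8.55 in no serum, without overlap. Its call was lost without experiment H and with other probe sets, and without experiment H none of the 5 calls remained. In mouse serum E2f1 was lower by -0.85 ± 0.21, Mcm3 by -0.50, Mcm7 by -0.40 and Cdk4 by -0.38 (adjusted p from 0.0099 to 0.044), and none of these calls remained without experiment G.

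With LPS present the sera were again each set against the same no serum arrays. Calf serum had 5 of 57 genes higher and 6 lower, against 5.00% and 5.86% of all genes. In mouse serum 3 were higher and 8 lower, against 6.83% and 6.58%, and in human serum 2 were higher and 1 lower, against 2.60% and 2.64%. Ccnd1 was higher with LPS in each serum, by 1.05 ± 0.13 in calf (adjusted p 8.8e-06), 2.04 in mouse (adjusted p 2.7e-10) and 1.39 in human serum (adjusted p 2.9e-07). These 3 calls held in every alternative run. Cdt1 was higher by 0.43 ± 0.10 in calf, 0.38 with mouse and 0.79 with human serum, with the calf and mouse serum calls lost without experiment G or I. Ccnd3 was higher by 1.42 ± 0.24 in calf (adjusted p 0.00024) and 0.75 in mouse serum. The Ccnd3 call in calf serum held in every alternative run, and that in mouse serum was lost in 10 of 17.

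Lower with LPS in a serum than in no serum was Mki67, by -0.95 ± 0.10 in calf (adjusted p 6.1e-07), -0.74 in mouse (adjusted p 1.1e-05) and -0.52 in human serum (adjusted p 0.0017, lost without experiment H, at -0.46). The kinesin gene Kif11 was lower by -0.61 ± 0.18 in calf and -0.87 in mouse serum, and the kinetochore gene Ndc80 by -0.84 ± 0.23 and -0.82. Top2a was lower by -0.77 ± 0.14 in mouse serum (adjusted p 0.0006), and its arrays, at 7.43, 7.62 and 7.39 against 8.25, 8.11 and 8.39 in no serum, did not overlap. Uhrf1 was lower by -0.83 ± 0.21 in calf and -0.81 in mouse serum. Leaving out 1 experiment ended the calls of Kif11 (G, H or I), Uhrf1 (G or H) and Ndc80 (H or I) in calf serum, and of Ndc80 (G or H), Uhrf1 (G or I) and Top2a (I) in mouse serum. Cdc20 was lower in calf serum by -1.22 ± 0.34 (adjusted p 0.021), a call lost in 8 of 19 alternatives and at 0.02 with the second probe set. Of the mitotic genes 0 were higher with LPS in any serum (1, 0 and 0 for calf, mouse and human serum at an unadjusted p under 0.05 in limma).

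Whether a gene's LPS response differed from medium to medium was tested as interactions. Between calf serum and no serum 0 of 57 genes had a higher and 1 a lower response, against 0.900% of all genes in each direction (3 and 13 at an unadjusted p under 0.05 in limma). Between mouse serum and no serum 2 were higher and 2 lower, against 3.39% and 3.05%, and between human serum and no serum 1 was higher and 2 lower, against 2.50% and 2.46%. With the experiment as a block 2 genes were lower for calf serum and 2 higher for human serum. Between the sera, mouse against calf serum had 1 higher and 1 lower (1.83% and 1.95% of all genes), human against calf serum 4 higher and 2 lower (2.34% and 2.27%), and mouse against human serum 2 higher and 0 lower (0.314% and 0.314%). The genes were Ccnd1, Ccnd2, Cdk6, Cdt1, Mki67, Cdc20, Bub1b and Prc1. The median of the 27 mitotic genes for calf serum against no serum was -0.46, and 24 of the 27 differences lay below 0, where the median of all genes was 0.03. Of those 24 only Mki67 passed the test.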

How the data were processed

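RNA from 24 macrophage cultures was measured on Affymetrix arrays. The authors deposited 1 log2 level per probe set and array, summarised with Partek and GCRMA per the submitters' processing notes (versions not given). The log2 scale is an inference from their range (1.48 to 14.8), and GCRMA corrects background, so low levels and their folds depend on it. Precision is limited by 3 arrays per group.

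Of 45101 probe sets, 34958 carried 1 gene, 932 several and 9211 none in the platform annotation. Entrez numbers found 34754 of the probe sets in RefSeq and changed 0 symbols. For each gene the probe set with the highest mean over all arrays was used, so 45 members with several probe sets rest on 1 of them. A gene was tested if 3 arrays or more gave it a level above 5.08, the median over the whole table. All group means of 52 members lay above that value, and those of Ccne2, E2f2, Cdc6, Tyms and Ttk did not. In limma 3.58.1 (R 4.3.3) 1 mean per group was fitted over 24 arrays with trended, robust variance. Two-sided p-values were adjusted by Benjamini-Hochberg over 11779 genes within each of 22 comparisons, with a threshold of 0.05. The procedure was tested on simulated data. Python 3.11.15 (pandas 2.3.3, matplotlib 3.10.9) drew the figures and searched promoters.

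The labels mark experiments G, H and I, which pair the groups. Deviations from group means correlated at a median of 0.062 in 84 same-letter pairs (-0.044 to 0.185, 18 above 0.1) and -0.034 in 168 others. Array names gave 3 batches, 1 per experiment, save that 1 array of experiment H (calf serum, no LPS) has the batch of experiment G.

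Members and lists were chosen with earlier results of these data known. Genes were named by class, called and with 1 sign in all 3 experiments, the largest first (up to 5 in each direction). Members were also named to set the 4 media side by side, for having no call or for opposite calls. From other lists up to 3 in each direction were named. Alternatives were quantile normalization, arrays centred on the median of the genes tested, no filter or a filter on 12 arrays, the mean or the second probe set of a gene, experiment or batch as a term, no trend and robust step, only a comparison's own groups, and each array or experiment left out.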

Additional observations from a re-analysis of the deposited data

Results flagged for a closer look

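The results below are differences between 2 media in the LPS response of 1 gene, each past the limma test of the difference itself at an adjusted p under 0.05 over all genes tested. Each had the same sign in 3 of 3 experiments. Comparisons with no serum share its arrays, and those between sera share the serum arrays.

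Ccnd1 responded higher in mouse serum than in no serum by 1.46 ± 0.19 (SE, adjusted p 2.1e-05), than in calf serum by 1.54 (adjusted p 1.8e-05) and than in human serum by 0.85 (adjusted p 0.033). In human serum it responded higher than in calf serum by 0.68 (adjusted p 0.038). The response of Ccnd2 was -1.19 ± 0.14 in human serum relative to no serum (adjusted p 5.4e-06) and -1.31 relative to calf serum (adjusted p 2e-06). For mouse serum it was -0.51 relative to calf serum (adjusted p 0.036) and 0.80 relative to human serum (adjusted p 0.0034). Cdk6, their kinase partner, had a response of -0.34 ± 0.10 in human serum relative to no serum (adjusted p 0.049) and -0.40 relative to calf serum (adjusted p 0.021).

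The response of Mki67 was -1.19 ± 0.14 in calf serum (adjusted p 1.7e-05) and -0.83 in mouse serum (adjusted p 0.00045) relative to no serum, and 0.78 in human relative to calf serum (adjusted p 0.0013). Cdt1 gave 0.49 ± 0.14 in mouse serum (adjusted p 0.045) and 0.55 in human serum (adjusted p 0.026) relative to no serum. Cdc20 gave -1.82 ± 0.48 in mouse serum relative to no serum (adjusted p 0.022). In human relative to calf serum Bub1b gave 1.03 ± 0.27 (adjusted p 0.026) and Prc1 1.08 ± 0.29 (adjusted p 0.032). Of the results relative to no serum, Cdk6 in human serum lost its call in 19 of 25 alternatives (-0.41 to -0.27), Cdt1 in mouse serum in 18 (0.22 to 0.64) and in human serum in 12 (0.28 to 0.78), and Cdc20 in mouse serum in 10 (-2.45 to -0.32).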

How the results depend on the processing

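Of 215 calls of single genes in the 13 comparisons among the media, LPS and their responses relative to no serum, 107 were kept in every alternative run. With the experiment as a block 214 were kept, and with array batch 214. Values that turned sign were Pcna with LPS in no serum when centred (0.01) and, with the second probe set, Chek1 with LPS in calf serum (0.28), Tpx2 with LPS in mouse (-0.27) and human serum (-0.42), and with LPS Cdc20 in calf (0.021) and Cdc45 in mouse serum (0.094) against no serum. Counts of members moved by more than 1.5 times as follows. For LPS, centring gave 8 higher and 24 lower in no serum and 10 and 21 in human serum, and the second probe set gave 22 lower without serum, 22 with calf, 19 with mouse and 15 with human serum, over fewer genes. For calf serum without LPS the block and the batch each gave 2 higher, the mean of probe sets 2 lower and its own groups 0 lower. For mouse serum without LPS quantile normalization, centring, the mean, the second probe set, the block and the batch each gave 2 higher and its own groups 3, and centring, no filter, the mean, the second probe set and leaving out the trend and robust steps each gave 2 lower. For human serum without LPS the second probe set gave 1 lower and its own groups 3. With LPS, calf serum had 3 higher and 1 lower with the second probe set and 2 and 1 with its own groups, and mouse serum had 1 higher with the mean, the second probe set and its own groups, and 2 and 4 lower with the latter settings. For the difference in LPS response, calf serum gave 2 lower with the mean and the block and 0 with the second probe set. Mouse serum gave 1 higher when centred, unfiltered, without the trend and robust steps or in its own groups, and 0 lower with the second probe set. Human serum gave 0 higher when centred, with the mean, without these steps or in its own groups, 2 with the block and the batch, and 1 lower with quantile normalization, no filter, the second probe set, its own groups and without these steps. Leaving out 1 array or experiment, the LPS counts were 4 to 5 higher and 25 to 35 lower in no serum, 4 to 5 and 36 to 40 in calf, 3 to 6 and 28 to 35 in mouse, and 6 to 7 and 19 to 29 in human serum. Without LPS they were 1 to 2 and 0 to 1 in calf, 0 to 2 and 0 to 3 in mouse, and 2 to 4 and 0 to 6 in human serum, and with LPS 3 to 5 and 1 to 8, 1 to 4 and 3 to 8, and 2 and 0 to 2. For the response they were 0 to 1 and 1 to 2 in calf, 1 to 3 and 1 to 2 in mouse, and 0 to 2 and 1 to 2 in human serum. Beyond the block values printed above, the block ended the call of Tk1 with LPS in no serum. The cause of these moves was not tested, apart from the smaller number of genes or arrays named. The 3 arrays per group limit what could be called, and members near the filter have folds that depend on background.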
